A study of Mus with 6 samples.

Results

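Of 41 gene symbols listed for Kupffer cells, for macrophages in general and for monocytes and lipid-associated macrophages, 37 were rows of the liver expression table, which holds 48882 genes. The genes were chosen by name, and every one of the 37 passed the abundance filter (a mean of at least 0.5 TPM over the 6 libraries). They fall into 8 genes of resident Kupffer cells, 20 pan-macrophage genes and 9 genes of infiltrating monocytes and lipid-associated macrophages. The listed names Folr2b, Nr1h3b, Slc40a1b and Hmox1b matched no row, and Folr2, Nr1h3, Slc40a1 and Hmox1 are described beside the members.

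The libraries came from flash-frozen mouse liver, 3 from mice without Fabp4 (knockout) and 3 from littermates with the wild type gene. Both groups had been fed the Lieber-Decarli ethanol liquid diet for 8 weeks and had then been given a single ethanol binge, a model of alcoholic steatohepatitis (ASH, fatty liver with inflammation). The comparison therefore asks how macrophage transcripts of the ethanol-fed liver differ with the Fabp4 genotype, with no ethanol-free liver among the samples analysed here. The labels give no strain, sex or age, do not say which cells lack the gene, and do not state that each replicate is a separate mouse, so the p-values rest only on how far these libraries differ, which may be technical.

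Kupffer cells are the macrophages that sit in the liver sinusoids, where they clear bacteria, complement-coated particles and dying cells from portal blood. When they are lost, monocytes enter the liver and can take on their identity, and Timd4 marks the long-lived, embryo-derived cells among them. Fat-laden livers also hold lipid-associated macrophages, known for Trem2, Gpnmb, Cd9 and Spp1. Fabp4, the fatty acid-binding protein removed here, is itself made by macrophages as well as by adipocytes and endothelium.

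Expression is in TPM, by definition a share of all transcripts corrected for transcript length. The deposited values had near-equal sorted values in every library. They are thus not exact shares, and levels compare between genes only roughly. Differences are knockout minus wild type on the log2(TPM + 1) scale, with their standard error (SE), and understate the change of low genes. Adjusted p-values come from limma, adjusted by the Benjamini-Hochberg method over the 14155 genes that passed the filter. Fabp4 itself measured 14.7, 8.15 and 19.96 TPM in the wild type livers, and no knockout library had a value for it (limma adjusted p = 0.0168). Wild type replicate 2 stood apart on the first principal component of all genes (-38.1, against -2.50 to 22.3 in the others), which held 33.9% of the variance, as did knockout replicate 1 on the next component. Sequencing depth is unknown, since TPM keeps none. Sets of values give replicates 1, 2 and 3 in order, wild type before knockout.

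The macrophage genes were on average higher in the knockout livers, but the libraries of each genotype were widely spread, and no member passed the test. Of the 37 members, 33 had a higher mean log2 value in the knockout (89.2%), the measure behind each such count, against 57.4% of all genes tested. The 33 include Gpnmb, which passed the filter only through knockout replicate 3 (2.58 TPM, against a wild type mean of 0.311 TPM). No member had an adjusted p under 0.05 in limma, where 0.00706% of all genes passed (1 gene, Fabp4). The smallest adjusted p of a member was 0.536. At an unadjusted threshold of 0.05, 6 members were higher (16.2%, against 5.12% of all genes) and 0 were lower (against 2.91%). All 3 knockout values lay above all 3 wild type values for 5 members (13.5%, against 8.94% of all genes), a share near the background, and all 3 lay below for 0 (against 4.38%). Those 5 were Vsig4, Timd4, Cd163, Itgam and Cd9, and Clec4f was the sixth at the unadjusted threshold. In bulk liver, more cells of a type cannot be told apart from more RNA per cell.

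**Figure D1:**
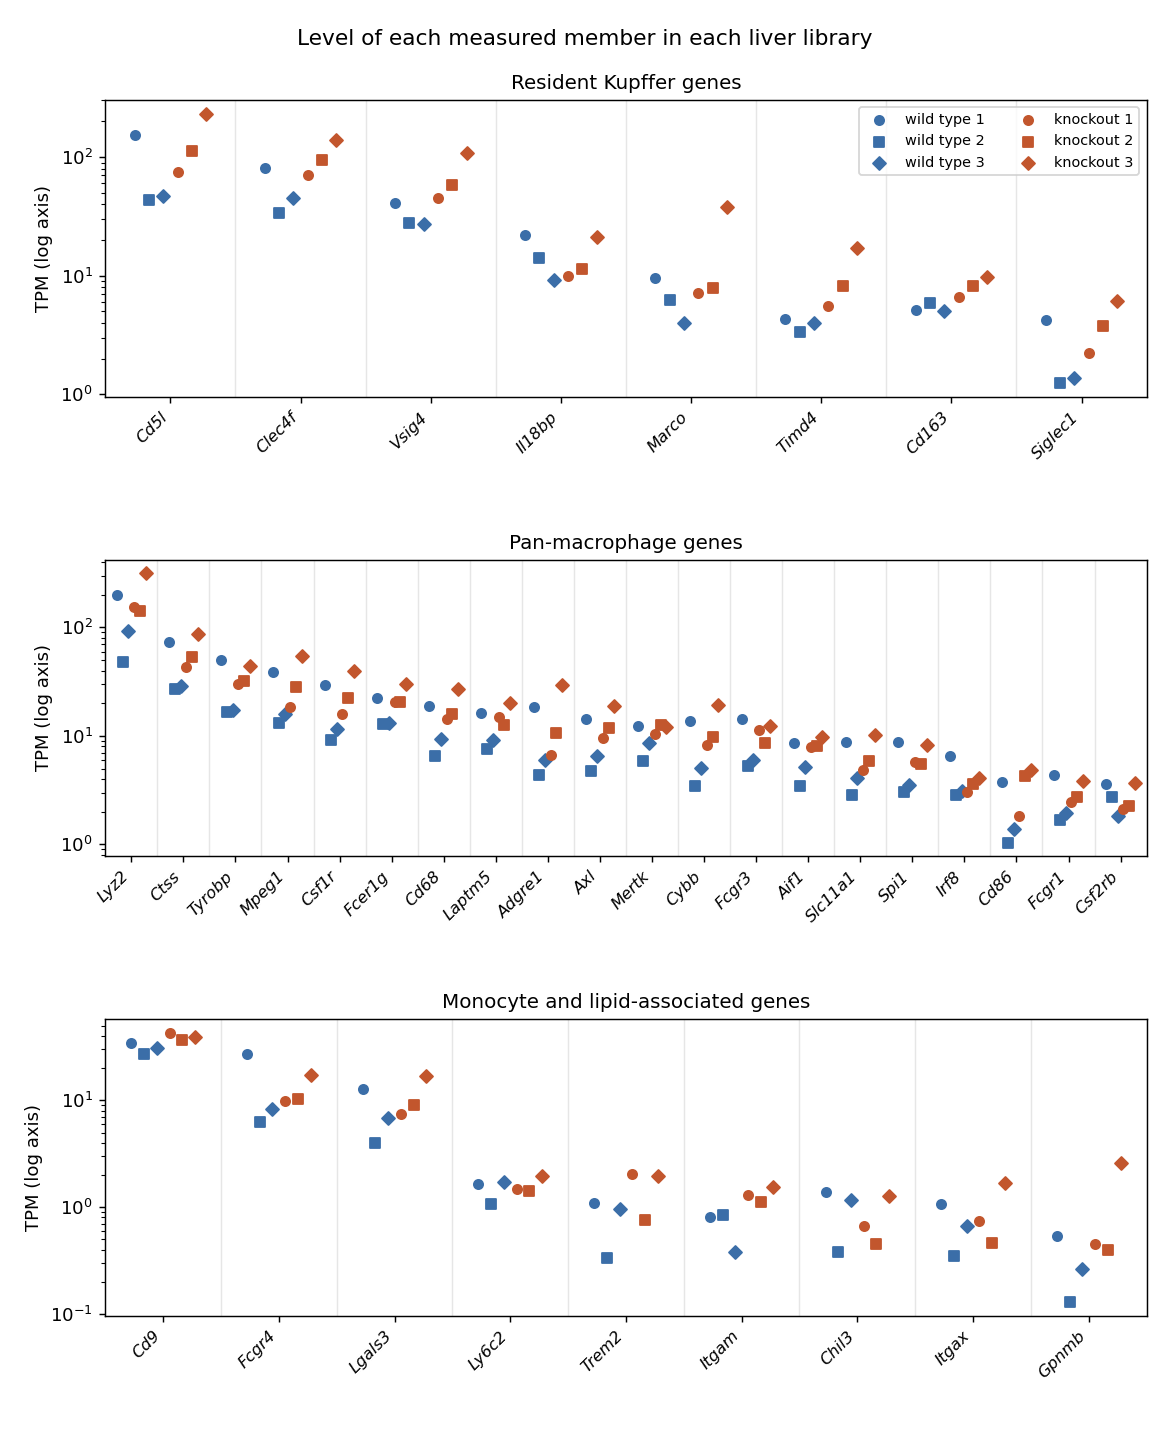
Level of each of the 37 measured members in each library, in TPM on a log axis, with 1 panel for each group of members, blue for wild type and orange for knockout, and the marker shape for the replicate number. Knockout replicate 3 was the highest library for 26 of the 37 members, wild type replicate 2 the lowest for 31, and wild type replicate 1 lay among the knockout libraries for most pan-macrophage genes.

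The order of the libraries was similar for many of the genes. Knockout replicate 3 was the highest of the 6 for 26 members and wild type replicate 1 for 8, and the lowest library was wild type replicate 2 for 31 and wild type replicate 3 for 6. Wild type replicate 1 was above knockout replicate 1 for 31 members and above knockout replicate 2 for 29. All 3 knockout libraries exceeded both wild type replicates 2 and 3 for 30 members. Leaving out wild type replicate 1 accordingly made the knockout higher for all 37 members, with 30 not overlapping (against 17.3% of all genes) and 27 at the unadjusted threshold of 0.05 (against 6.03%), yet none passed over all genes (smallest limma adjusted p = 0.486). Without knockout replicate 3, 29 of the 36 members then tested were higher, and without both that library and wild type replicate 2, an alternative chosen after the data were seen, 23 of 36. The number higher was 31 without wild type replicate 2.

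**Figure D2:**
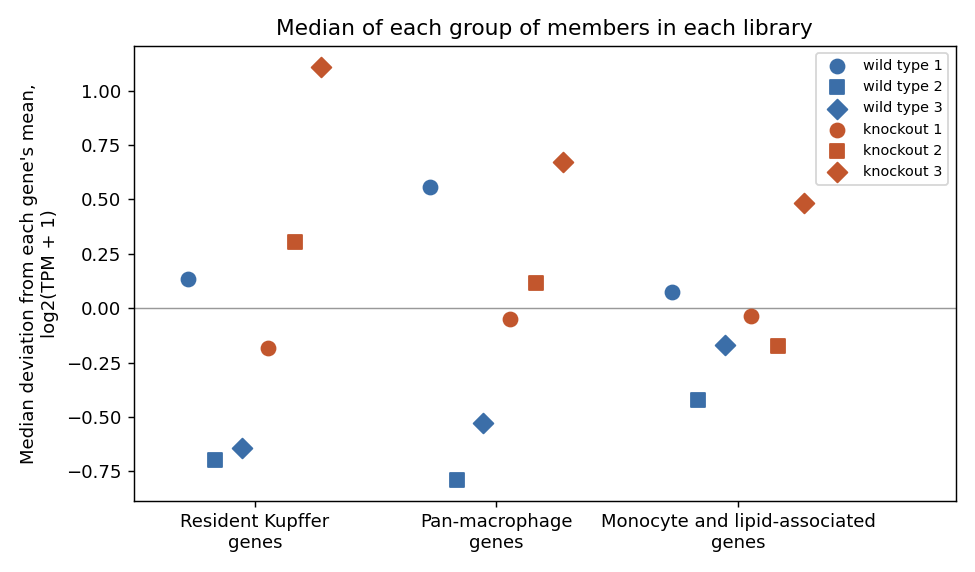
Median over each group of members of the deviation from the gene's own mean over the 6 libraries, on the log2(TPM + 1) scale, with 1 point per library. Knockout replicate 3 was highest in each group (1.11, 0.67 and 0.49), and wild type replicate 1 stood well above wild type replicates 2 and 3 among the pan-macrophage genes (0.56 against -0.79 and -0.53).

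Resident Kupffer genes had the largest median difference of the 3 groups of members. Their median difference was 0.91, against 0.56 for pan-macrophage genes, 0.36 for the monocyte and lipid-associated genes and 0.04 over all genes tested. The differences between these medians were not tested. A pseudocount of 0.1, which shrinks low genes less, gave medians of 0.93, 0.59 and 0.37 in the same order. At that setting Gpnmb, a low gene of the third group, had a larger difference (1.26) than Timd4 (1.22). Of the 8 resident genes, 7 had a higher mean in the knockout (against 57.4% of all genes) and 3 had all knockout values above all wild type values (against 8.94%), and knockout replicate 3 was the highest knockout library for all 8. Without knockout replicate 3 the resident median was 0.42, the pan-macrophage median 0.34 and the third 0.08. Without wild type replicate 1 they were 1.18, 0.94 and 0.53, and without wild type replicate 2 they were 0.62, 0.30 and 0.15.

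**Figure D3:**
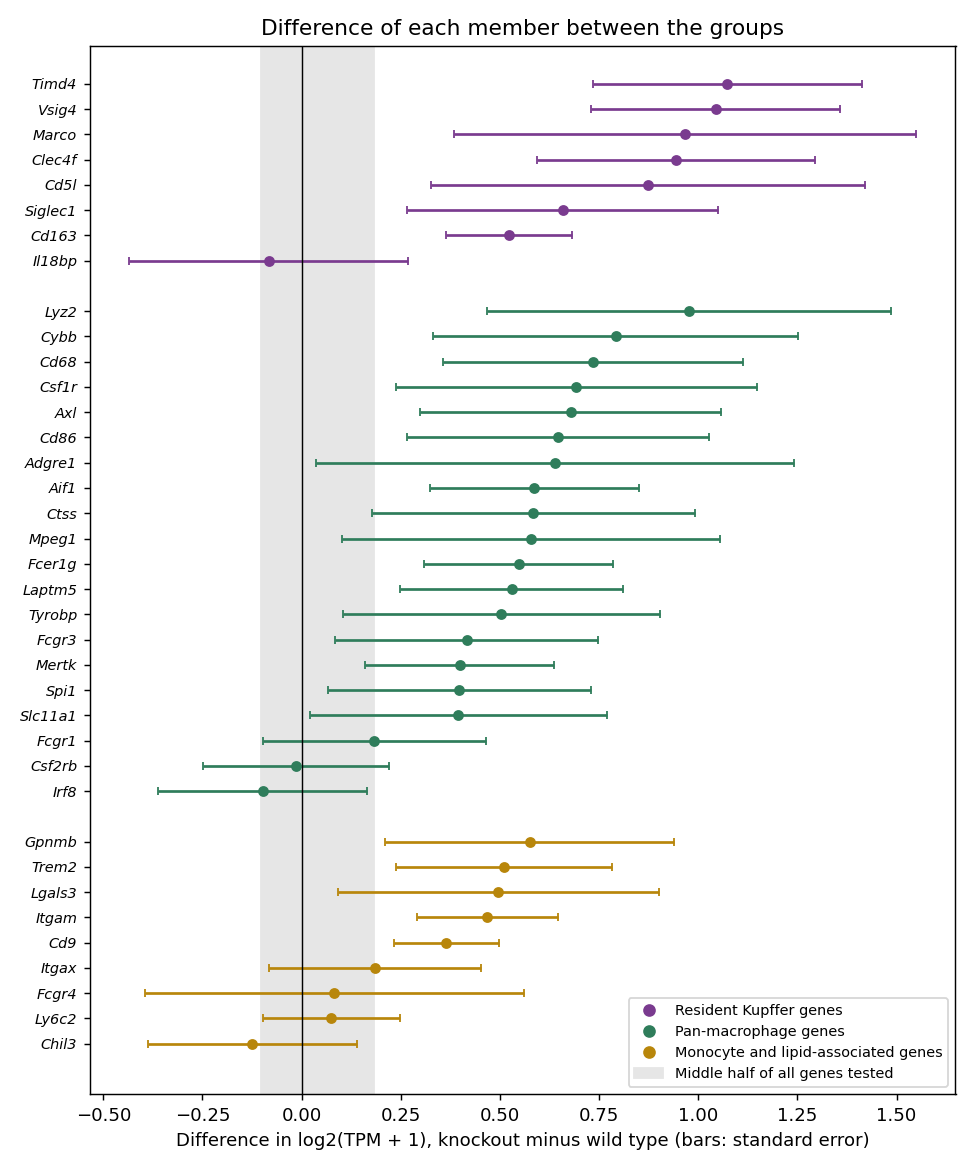
Difference of each member between knockout and wild type on the log2(TPM + 1) scale, with bars of 1 standard error, ordered within the 3 groups of members, and a grey band between the quartiles of all genes tested (-0.10 to 0.18). Timd4 and Vsig4 lie farthest to the right at 1.07 and 1.04, and Il18bp, Irf8, Csf2rb and Chil3 lie left of 0.

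Timd4 (mm10 chromosome 11, 46810786 to 46844333, plus strand) encodes a receptor for phosphatidylserine on dying cells. It had wild type values of 4.35, 3.36 and 4.02 TPM and knockout values of 5.53, 8.20 and 17.2 TPM, 2.63-fold higher on average. Every knockout library exceeded every wild type library, and knockout replicate 3 supplied most of the gap. The difference was 1.07 (SE 0.34, limma adjusted p = 0.536), and 0.66 (SE 0.20) without knockout replicate 3. Vsig4 (chromosome X, 96247203 to 96293438, minus strand), the complement receptor that captures C3b-coated particles from blood, measured 40.7, 28.0 and 27.5 TPM against 45.5, 58.1 and 109 TPM. It had the same form, with no overlap and knockout replicate 3 far above the rest (1.04, SE 0.31, limma adjusted p = 0.536; 0.69, SE 0.22, without that library). Cd163 (chromosome 6, 124304630 to 124330529, plus strand), the scavenger receptor for haemoglobin bound to haptoglobin, had the tightest groups of the resident genes. It averaged 5.35 ± 0.451 TPM in wild type and 8.20 ± 1.56 TPM in the knockout (SD, n = 3 each), from 5.12, 5.87 and 5.06 TPM and from 6.65, 8.18 and 9.76 TPM, with a difference of 0.52 (SE 0.16). Unlike the other 7 resident genes, its wild type replicate 1 did not exceed wild type replicate 2.

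Clec4f, the C-type lectin a marker highly specific to mouse Kupffer cells, had wild type values of 81.6, 34.0 and 45.6 TPM and knockout values of 70.4, 94.2 and 140.1 TPM. Knockout replicate 1 lay below wild type replicate 1, so the groups overlapped (0.94, SE 0.35, limma adjusted p = 0.577). Cd5l, a secreted scavenger protein and one of the most abundant Kupffer transcripts, measured 152, 43.8 and 47.3 TPM against 75.4, 113 and 233 TPM. Only knockout replicate 3 exceeded wild type replicate 1. Marco, a scavenger receptor for bacteria, measured 9.50, 6.26 and 3.97 TPM against 7.19, 7.93 and 37.7 TPM. Its 2.68-fold higher knockout mean rested on knockout replicate 3, and without that library its difference was 0.24. Siglec1, the sialic acid-binding sialoadhesin, measured 4.24, 1.25 and 1.38 TPM against 2.22, 3.76 and 6.18 TPM, again with wild type replicate 1 within the knockout range. Il18bp, the secreted inhibitor of interleukin-18, was the exception among the 8. It had wild type values of 22.0, 14.0 and 9.17 TPM and knockout values of 9.89, 11.3 and 21.1 TPM, a difference of -0.08 (SE 0.35) that turned to 0.22 without wild type replicate 1.

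Of the 4 genes whose listed spelling was not in the table, Folr2, a folate receptor of resident macrophages, had the same library order as Clec4f. It had wild type values of 11.5, 3.65 and 5.71 TPM and knockout values of 7.42, 13.5 and 17.7 TPM (0.85, SE 0.40, limma adjusted p = 0.673). The other 3 are also made by hepatocytes or other liver cells and were close to equal between the groups. Nr1h3, the oxysterol receptor LXR alpha, differed by 0.03 (SE 0.14), Slc40a1, the iron exporter ferroportin, by 0.15 (SE 0.22), and Hmox1, the haem-degrading enzyme, by 0.02 (SE 0.31).

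Because macrophage genes as a whole differed between libraries, each member was also set against Csf1r in the same library, a description chosen after the values were seen. The ratio of Timd4 to Csf1r TPM was 0.149 in wild type replicate 1, 0.369 and 0.347 in wild type replicates 2 and 3, and 0.350, 0.365 and 0.428 in the knockout. For Vsig4 it was 1.39, 3.07 and 2.38 in wild type and 2.88, 2.58 and 2.71 in the knockout. For Cd163 it was 0.175, 0.644 and 0.437 and 0.421, 0.364 and 0.244. In all 3 cases wild type replicate 1 was lowest, and the other wild type libraries lay within or close to the knockout range or above it. The 3 resident genes that separated the genotypes in TPM thus did not separate them relative to Csf1r, and neither did Itgam and Cd9. Cd5l kept a nearly even ratio, from 4.09 to 5.81 over the 6 libraries. Against Csf1r, Il18bp, Irf8 and Fcgr4 were lower in every knockout library than in every wild type library (3 of 36 members, against 2.61% of all genes), and no member was higher (against 0.106%). Against Adgre1 in place of Csf1r, all 36 ratios overlapped between the groups.

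**Figure D4:**
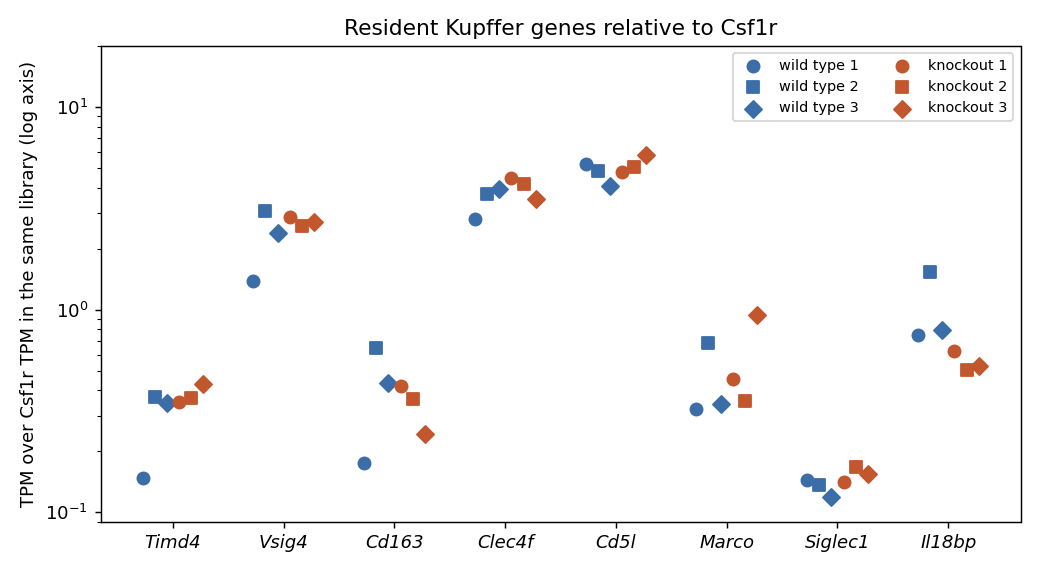
TPM of the 8 resident Kupffer genes divided by Csf1r TPM of the same library, on a log axis, with 1 point per library. Wild type replicate 1 has the lowest ratio for Timd4 (0.149), Vsig4 (1.39), Cd163 (0.175), Clec4f (2.79) and Marco (0.325), and the groups overlap for each gene except Il18bp, which is lower in every knockout library.

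The 20 pan-macrophage genes overlapped between the groups without exception, although 18 had a higher mean in the knockout. Knockout means ran from 0.868-fold (Irf8) to 1.80-fold (Lyz2) of the wild type means. Wild type replicate 1 was the highest wild type library for all 20 and was above knockout replicate 1 for all 20, and wild type replicate 2 was the lowest library for 19. Differences from wild type replicate 2 to 1, the extremes of that group for most of these genes, had a median of 2.92-fold. Those between the group means had a median of 1.45-fold, an unlike measure, since a mean evens out such extremes.

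Csf1r, the receptor for the growth factors CSF1 and IL-34 on which macrophages depend, averaged 16.6 ± 10.99 TPM in wild type and 26.1 ± 12.5 TPM in the knockout (SD, n = 3 each). Adgre1, which encodes the F4/80 antigen, measured 18.5, 4.37 and 5.998 TPM against 6.67, 10.7 and 29.7 TPM, and its SE of 0.60 was nearly as large as its difference of 0.64. Spi1, the myeloid transcription factor PU.1, differed by 0.40 (SE 0.33). Irf8, its partner in monocyte development, measured 6.53, 2.83 and 3.08 TPM against 3.05, 3.63 and 4.11 TPM (-0.10, SE 0.26). Csf2rb, the shared beta chain of the GM-CSF, IL-3 and IL-5 receptors, differed by -0.01 (SE 0.23). Irf8 and Csf2rb were thus the pan-macrophage genes without a higher knockout mean. Csf2rb has the close copy Csf2rb2, measured at 0.209 to 1.19 TPM, with which it can share reads, as Lyz2 can with Lyz1 and the Fc receptor genes with one another.

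Genes of the lysosome and of microbial killing included the most abundant pan-macrophage members. Lyz2, lysozyme M, had wild type values of 198, 48.2 and 92.9 TPM and knockout values of 153, 142 and 317 TPM. It had the largest pan-macrophage difference (0.98, SE 0.51, limma adjusted p = 0.693), and wild type replicate 1 exceeded knockout replicates 1 and 2. Ctss, the lysosomal protease cathepsin S, measured 73.9, 27.1 and 28.7 TPM against 43.2, 53.3 and 86.9 TPM. Cd68, a lysosomal membrane glycoprotein, measured 19.0, 6.46 and 9.36 TPM against 14.2, 15.8 and 27.1 TPM. Both showed the common library order, with differences of 0.58 (SE 0.41) and 0.74 (SE 0.38). Laptm5, a lysosomal membrane protein of blood cells, measured 16.2, 7.498 and 9.24 TPM against 14.9, 12.5 and 20.1 TPM. Cybb, the catalytic subunit of the phagocyte NADPH oxidase, measured 13.6, 3.42 and 5.05 TPM against 8.33, 9.80 and 19.2 TPM. In each of these genes wild type replicate 1 lay within the knockout range. Mpeg1, the pore-forming perforin-2, and Slc11a1, the phagosomal metal transporter NRAMP1, differed by 0.58 (SE 0.48) and 0.39 (SE 0.37).

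Fc receptors bind antibody-coated particles, and their activating forms signal through the adaptor Fcer1g. Fcer1g had wild type values of 22.2, 12.9 and 13.3 TPM and knockout values of 20.5, 20.6 and 29.8 TPM, and had the smallest limma p of the 20 (0.55, SE 0.24, adjusted p = 0.636). The receptors themselves were closer to equal. Fcgr1, the high-affinity IgG receptor, differed by 0.18 (SE 0.28), Fcgr3 by 0.42 (SE 0.33) and Fcgr4, listed with the monocyte genes, by 0.08 (SE 0.48). Tyrobp, the adaptor DAP12 through which Trem2 signals, measured 50.4, 16.6 and 17.3 TPM against 30.4, 32.2 and 44.4 TPM, with wild type replicate 1 above all other libraries. The inhibitory receptor Fcgr2b, which is no member and in mouse liver is made largely by sinusoidal endothelium, measured 57.7, 54.1 and 52.6 TPM against 83.6, 72.0 and 85.0 TPM. Its groups did not overlap and its wild type values lay within a narrow range, unlike those of the activating receptors (0.54, SE 0.12, limma adjusted p = 0.522).

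The remaining pan-macrophage genes act in the uptake of dying cells and in activation. Axl, a receptor tyrosine kinase that recognises apoptotic cells through Gas6, had wild type values of 14.3, 4.71 and 6.51 TPM and knockout values of 9.58, 11.7 and 18.9 TPM (0.68, SE 0.38). Its relative Mertk measured 12.4, 5.83 and 8.65 TPM against 10.3, 12.7 and 12.0 TPM (0.40, SE 0.24). Mertk was the member that peaked in knockout replicate 2. Aif1, the actin-binding protein IBA1, measured 8.53, 3.44 and 5.16 TPM against 7.97, 8.13 and 9.80 TPM. Its knockout libraries lay close together and its overlap came from wild type replicate 1 (0.59, SE 0.26, limma adjusted p = 0.651). Cd86, a costimulatory ligand for T cells, measured 3.74, 1.04 and 1.39 TPM against 1.84, 4.31 and 4.88 TPM (0.65, SE 0.38).

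Genes of infiltrating monocytes and lipid-associated macrophages were mostly low. The median level of the 9 was 1.19 TPM, against 13.3 TPM for the resident and 10.6 TPM for the pan-macrophage genes. Ly6c2, the marker of classical monocytes, had wild type values of 1.66, 1.07 and 1.71 TPM and knockout values of 1.46, 1.41 and 1.94 TPM. The groups were close to equal (0.07, SE 0.17, limma adjusted p = 0.947), and its near copy Ly6c1 was at 0.171 to 0.734 TPM. Chil3, a secreted chitinase-like protein of monocytes and alternatively activated macrophages, measured 1.39, 0.378 and 1.16 TPM against 0.666, 0.455 and 1.27 TPM (-0.12, SE 0.26). Itgam (chromosome 7, 128062640 to 128118491, plus strand), the CD11b integrin chain of monocytes and neutrophils, differed in form. It measured 0.811, 0.852 and 0.383 TPM against 1.29, 1.11 and 1.54 TPM, without overlap (0.47, SE 0.18, limma adjusted p = 0.579). Itgax, the CD11c chain, measured 1.07, 0.345 and 0.666 TPM against 0.745, 0.462 and 1.67 TPM (0.18, SE 0.27). Fcgr4, the Fc receptor of patrolling monocytes that Kupffer cells also make, measured 26.9, 6.23 and 8.35 TPM against 9.97, 10.3 and 17.1 TPM. Wild type replicate 1 was its highest library, so that its mean TPM was lower in the knockout (12.5 against 13.8 TPM) while its mean log2 value was slightly higher. Its difference ran from -0.30 without wild type replicate 2 to 0.67 without wild type replicate 1.

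Lipid-associated macrophage genes were also low, apart from Cd9 and Lgals3, which other liver cells make too. Trem2, a lipid-sensing receptor, had wild type values of 1.10, 0.334 and 0.952 TPM and knockout values of 2.04, 0.764 and 1.94 TPM (0.51, SE 0.27, limma adjusted p = 0.698). Knockout replicate 2 lay below wild type replicates 1 and 3. Gpnmb, a lysosomal glycoprotein of lipid-loaded macrophages, measured 0.541, 0.129 and 0.262 TPM against 0.454, 0.394 and 2.58 TPM, so that its 3.68-fold higher mean rested on knockout replicate 3, and without that library it was under the filter. Lgals3, which encodes galectin-3, measured 12.7, 4.01 and 6.87 TPM against 7.40, 8.97 and 17.1 TPM (0.50, SE 0.40). Cd9 (chromosome 6, 125460266 to 125494755, minus strand), a tetraspanin, measured 34.3, 27.0 and 30.9 TPM against 43.2, 37.2 and 38.9 TPM. Its groups were narrow and did not overlap (0.36, SE 0.13, limma adjusted p = 0.572), and its span overlaps 3 other measured genes whose reads cannot be told apart without strand (Cd5l, Cybb and Mertk each overlap 1 such gene). Knockout replicate 1, not 3, was the highest library for Cd9 and Trem2.

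Other genes of the macrophage system were compared by list. None of them passed limma over all genes. At the unadjusted threshold of 0.05, 2 genes were higher in each of the further macrophage (9.5%), identity (16.7%) and niche (18.2%) lists, against 5.12% of all genes. In the lipid list 2 of 12 were lower, against 2.91% of all genes, and the other 3 lists had none. Among 21 further macrophage genes past the filter, 19 had a higher mean in the knockout and 2 a lower one (median difference 0.42). Over all genes tested 57.4% had a higher mean, the share to set beside each list. Of the 21, 1 did not overlap (4.8%, against 8.94% of all genes). Ms4a7, a macrophage membrane protein, was at 0.114 to 0.685 TPM in wild type and 0.767 to 1.79 TPM in knockout (0.71, SE 0.23). Its wild type mean of 0.363 TPM was under the filter. It passed through its knockout values, so its place in these counts is no support. The leukocyte gene Lst1 differed by 0.83 (SE 0.28). The complement genes C1qa, C1qb and C1qc, named after their values were seen, had the library order of Csf1r. C1qb measured 115, 34.7 and 42.0 TPM against 73.8, 81.7 and 120.4 TPM. Of 12 transcription factors tied to Kupffer cell identity and interferon, 8 had a higher mean and 4 a lower one (median 0.12). Id3, an inhibitor of DNA binding needed for Kupffer cell development and also made by endothelium, measured 60.9, 43.5 and 72.4 TPM against 97.6, 95.6 and 112 TPM (0.80, SE 0.19, limma adjusted p = 0.522). Irf7, a regulator of interferon genes, differed by 0.73 (SE 0.24), and neither overlapped between the groups.

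Of 11 signals of the Kupffer cell niche tested, 9 had a higher mean in the knockout (against 57.4% of all genes; median difference 0.08). In 3 of them, Dll4, Dll1 and Cxcl12, every knockout value lay above every wild type value (against 8.94% of all genes), the last pair named after their values were seen. Dll1, a Notch ligand, differed by 0.58 (SE 0.27), and the chemokine gene Cxcl12 by 0.29 (SE 0.13). The Notch ligand Dll4, made by sinusoidal endothelium, averaged 2.37 ± 0.371 and 3.59 ± 0.802 TPM (SD, n = 3 each) without overlap, and Tgfb1 differed by 0.57 (SE 0.23). Chemokines and receptors of monocyte recruitment were divided, with 6 higher and 5 lower of 11 (median 0.03), and Cx3cl1, also named after its values were seen, lay above every wild type value in each knockout library (0.24, SE 0.14). Ccr1, a receptor for Ccl3 and Ccl5, had wild type values of 2.45, 0.771 and 0.633 TPM and knockout values of 0.540, 0.0964 and 0.458 TPM, below every wild type library (-0.67, SE 0.31, limma adjusted p = 0.657). Ccr1 passed the filter through its wild type values, since its knockout mean was 0.365 TPM. Ccl5 and Ccr2 were named after their values were seen. Ccl5, a chemokine of T cells and macrophages, was at 26.8 TPM in wild type replicate 1 and at 2.06 to 7.499 TPM elsewhere. Ccr2, the receptor that brings monocytes out of bone marrow, measured 2.42, 0.883 and 1.43 TPM against 2.19, 1.26 and 1.85 TPM.

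Of 10 further monocyte genes, 5 were under the filter, and the 5 tested had a higher mean (median 0.33), with Nr4a1 at 0.35 (SE 0.24) and Ear2 at 0.55 (SE 0.41). Genes of lipid handling in macrophages, most of which hepatocytes also make, gave 8 higher and 4 lower of 12 (median 0.15). The lipid droplet coat gene Plin2 measured 934, 729 and 564 TPM against 512, 444 and 415 TPM (-0.67, SE 0.20, limma adjusted p = 0.536), below every wild type library, and the protease gene Ctsl differed by -0.81 (SE 0.34). Of 12 activation genes, 8 were under the filter, among them Tnf, Il6, Il10 and Nos2. The other 4 gave 2 higher and 2 lower. Of these, Cd40 passed through its knockout mean of 0.849 TPM, against 0.415 TPM in wild type. The interleukin-1 receptor antagonist gene Il1rn measured 13.9, 3.63 and 7.28 TPM against 3.14, 3.08 and 5.39 TPM (-0.80, SE 0.40), and Cd40 differed by 0.39 (SE 0.20).

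Markers of other cell types were also compared by list, and none passed limma over all genes (smallest adjusted p = 0.345, among the stellate markers). Of 12 endothelial markers, 12 had a higher mean in the knockout and 10 did not overlap (against 8.94% of all genes). For this and the other counts of higher means given here, the share of all genes was 57.4%. The summed level of the endothelial markers was 230.4 to 291 TPM in wild type and 329.6 to 384 TPM in the knockout. Unlike the macrophage sum, which was 359 to 966 TPM and 675 to 1415 TPM over the 37 members, the endothelial sums did not overlap. Stellate cell markers had a higher mean for 11 of 11 (254 to 312 and 297 to 376 TPM), B and plasma cell markers for 6 of 6 past the filter (34.2 to 51.9 and 47.5 to 262 TPM), and genes of dividing cells for 12 of 12 (54.1 to 77.0 and 76.0 to 148 TPM). Knockout replicate 3, the library with the highest macrophage sum, also had the highest dividing-cell, endothelial, red blood cell and hepatocyte sums. Of 12 neutrophil markers, which matter for Itgam, 8 were under the filter. The 4 tested were lower, 1 of them without overlap (against 4.38% of all genes). The sums over the 12 also did not overlap, with the knockout lower (21.2 to 50.3 and 16.0 to 20.9 TPM). The gap between the nearest libraries was small (21.2 against 20.9 TPM). Camp was listed without a value in all libraries and Ly6g, Mpo, Elane, Ngp and Ltf in some. T and NK cell markers (4.16 to 10.96 and 6.83 to 8.30 TPM; 4 of 5 higher) and dendritic cell markers, which matter for Itgax and Irf8 (4.36 to 7.32 and 5.78 to 7.57 TPM; 3 of 4 higher), were low. Cholangiocyte markers had a higher mean for 6 of 6 past the filter (46.6 to 81.9 and 49.9 to 77.0 TPM), and so did red blood cell transcripts for 5 of 5 (368 to 436 and 344 to 608 TPM). Hepatocyte markers summed to 126596 to 130199 TPM in wild type and to 126573 to 132221 TPM in the knockout, with 7 of 12 higher. The part of these cell types in the macrophage differences was not tested.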

How the data were processed

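Per the labels' protocols, TRIzol-extracted RNA of mouse liver was read on a HiSeq system, here as 6 libraries, 3 per genotype. FastQC, Trimmomatic and the build mm10 are named in the submitters' processing notes. For the aligner, the counting tool, versions and strandedness, nothing is stated in the sources used here. The deposited matrix has columns named TPM per the file headers, yet its values are log2: some are negative, and raised to the power of 2 they total 983800 to 1018120 in a library. Their near-equal sorted values are what quantile normalization leaves, so a change common to every gene could not be seen.

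Values were returned to TPM, blanks were taken as 0, and genes with a mean of at least 0.5 TPM were fitted as log2(TPM + 1) in R 4.3.3 by limma 3.58.1 (a moderated linear model with a mean-variance trend and genotype as the only term, two-sided, Benjamini-Hochberg, threshold 0.05). The fit was designed for TPM and was kept after the back-transformation. TPM keeps no depth, so no counting interval is given and precision rests on 3 libraries per group. The fit was tested on simulated data. Alternatives were pseudocounts of 0.1 and 5, no filter, a filter at 5 TPM, median scaling, quantile normalization, the replicate number as a block, a robust prior and leaving out libraries.

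The members and lists were chosen with earlier results of these data known. Values in every library are given, in each group of members, for up to 8 genes with the smallest p and the 3 most abundant, and in each further macrophage list the 2 genes with the smallest p are named, except 1 that is not reported here. Genes given outside this rule were chosen after their values were seen. They are Adgre1, Csf1r, Irf8, Mertk, Fcgr2b, Dll1, Cxcl12, Cx3cl1, Ccl5, Ccr2, the C1q genes, the 4 genes of similar spelling and near copies. Plin2 was found by its NCBI gene number in a RefSeq table of mouse genes.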

Additional observations from a re-analysis of the deposited data

How the results depend on the processing

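No member passed the adjusted threshold in limma in any of 15 alternatives, in which the smallest adjusted p of a member lay between 0.460 and 0.999. At the unadjusted threshold of 0.05 the number of members higher was 6 in the main analysis, 5 with the replicate number as a block and between 3 and 27 without a library. The number of genes past the threshold, 1 in the main analysis, was 0 with a pseudocount of 5, without a filter and with the replicate block, 0 to 6 when 1 library was left out, and 3 without both wild type replicate 2 and knockout replicate 3. Same-numbered libraries of the groups did not deviate together (correlations of -0.26, -0.27 and -0.05 across genes), so the numbers were not taken as pairs, and no member was called with or without the block. The members that did not overlap numbered 5 to 30 when 1 library was left out, with the highest number without wild type replicate 1 and 5 to 7 without each of the others, where 19.6% to 27.4% of all genes did not overlap, so that those counts were below the share of all genes. Without both wild type replicate 2 and knockout replicate 3, the median difference was 0.33 for resident genes, 0.07 for pan-macrophage genes and -0.16 for the monocyte and lipid-associated genes, a reversal of the last. Under that setting Fcgr4 (-0.54), Itgax (-0.22), Lgals3 (-0.18) and Ly6c2 (-0.14) were also reversed. Leaving out 1 library gave differences of -0.37 to 0.033 for Chil3, -0.30 to 0.67 for Fcgr4, -0.39 to 0.22 for Il18bp, -0.063 to 0.37 for Itgax and -0.050 to 0.14 for Ly6c2. The cause was not tested. The other 22 of the 27 members with values in every library kept their direction whenever 1 library was left out, except that Gpnmb could not be tested without knockout replicate 3. All 27 also kept it under each change of pseudocount or scaling. The deposited values already had near-equal sorted values, so scaling could move the differences little and is a weak check. A change of filter, block or prior leaves the difference of a tested gene as it was. Those settings (19 of the 27 tested with the filter at 5 TPM) therefore could not reverse a direction and are no check of it. Over all genes at the unadjusted threshold there were 725 higher and 412 lower, against 580 and 521 after median scaling and 570 and 537 after quantile normalization. Levels near 1 TPM, as for most monocyte genes, rest on few reads of unknown number.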
